A study of Hyphopichia burtonii and Hyphopichia pseudoburtonii with 16 samples.

Results

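Autophagy genes were followed through a shift to high salt in 2 related yeasts, Hyphopichia pseudoburtonii and Hyphopichia burtonii. A gene was taken as a member where its annotated name was ATG with a number, or where its description contained the word autophagy in any case. This gave 27 of the 5900 listed genes of H. pseudoburtonii and 29 of the 6115 of H. burtonii, or 56 of 12015 in all. All 56 carried an ATG name, and the word stood in the description of 20 members in H. pseudoburtonii and 21 in H. burtonii. The members bear 25 distinct names in H. pseudoburtonii and 26 in H. burtonii.

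Both yeasts were wild-type isolates from Nuruk, a Korean fermentation starter, strain KJS14 for H. pseudoburtonii and strain KJJ43 for H. burtonii. Cultures in rich medium (YPD) were started at an OD600 of 0.6 and taken at 2.0, when YPD holding 2 M NaCl was mixed in at equal volume, for 1 M NaCl. RNA was sequenced from cells taken 0, 5, 15 and 30 min after that addition, with 2 libraries for each species and time and 16 libraries in all. Salt and fresh medium reached the cells together and no salt-free course is among the samples used here, so their effects cannot be told apart. The 0 min cells are read here as having had no time in either, although their titles also name 1 M NaCl. Each species is 1 strain, so a difference between the species cannot be told apart from one between these strains. Nothing says whether libraries of 1 time are from different cultures, and p-values measure only the spread between these libraries.

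Macroautophagy wraps cytoplasm in a double membrane, the autophagosome, which fuses with the vacuole so that its cargo is broken down and reused. In budding yeast the Atg1 kinase complex starts the process, a lipid kinase complex and Atg9 vesicles supply membrane, and a pair of ubiquitin-like systems attach Atg8 to the growing membrane. Autophagy genes are known for their induction by starvation for nitrogen or carbon, and several others act in selective routes such as the cytoplasm-to-vacuole targeting (Cvt) pathway or the breakdown of peroxisomes.

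Values were FPKM, fragments per kilobase of gene scaled to the mapped fragments of each library, as the authors deposited them. Changes are differences in log2(FPKM + 1), a scale on which changes of low genes come out too small. A gene is called, and is said to have risen or fallen, where limma's p-value adjusted over all tested genes was under 0.05. FPKM summed to between 1259069 and 1498017 per library. Counts were not given, and a rough estimate from the lowest values gave about 318842 to 1204670 fragments per H. pseudoburtonii library and 1892891 to 3934602 per H. burtonii library. In H. pseudoburtonii the 0 min libraries were the deepest (about 1169952 and 1204670 fragments, against at most 608384 later), and the part of depth in the results was not tested. In bulk cultures, fewer cells that express a gene and less of its RNA per cell cannot be told apart. The median member rested on about 69.9 fragments at 30 min and 33.7 at 0 min in H. pseudoburtonii, and on about 210 and 108 in H. burtonii, summed over the 2 libraries of a time.

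At 30 min against 0 min, 10 of the 27 members of H. pseudoburtonii were called, all 10 higher, while 12 of the 29 members of H. burtonii were called, 8 higher and 4 lower. The called share was 37% of members in H. pseudoburtonii, where 35.4% of all 5798 tested genes were called (25.8% higher and 9.69% lower). It was 41.4% in H. burtonii, where 48.1% of all 6047 tested genes were called (37% higher and 11.1% lower). The share called was thus near that of all genes in H. pseudoburtonii and below it in H. burtonii. The median member changed by 1.15 in H. pseudoburtonii, where the median of all genes was 0.392, and by 0.62 in H. burtonii, where it was 0.556. Median-ratio scaling brings the median of all genes near 0. With it all genes had 883 higher and 989 lower in H. pseudoburtonii, and 1022 and 1092 in H. burtonii. The called members were then 8 higher and 1 lower in H. pseudoburtonii and 2 higher and 5 lower in H. burtonii. With quantile scaling all genes had 833 higher and 868 lower in H. pseudoburtonii, and 983 and 1012 in H. burtonii. The called members were then 6 higher and 2 lower in H. pseudoburtonii and 2 higher and 5 lower in H. burtonii. The count fell to 6 in H. pseudoburtonii when 0 min replicate 1 or a 30 min library was left out, and in H. burtonii to 7 without 0 min replicate 1 and to 5 without either 30 min library.

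Earlier, fewer members were called. At 5 min limma called 0 of 27 in H. pseudoburtonii, with 6 at an unadjusted p under 0.05, where 8.73% of all genes were called (4.17% higher and 4.55% lower). In H. burtonii 2 of 29 were called at 5 min, 1 higher and 1 lower, against 22.3% of all genes (11.2% higher and 11.1% lower). At 15 min 4 of 27 were called in H. pseudoburtonii, 3 higher and 1 lower (14.8%), against 17.7% of all genes (9.9% higher and 7.8% lower). In H. burtonii 7 of 29 had risen by 15 min and 0 had fallen (24.1%), against 29.7% of all genes (22.8% higher and 6.93% lower). These comparisons share their 0 min libraries. With quantile scaling all genes had 487 higher and 455 lower at 15 min in H. pseudoburtonii, and 553 and 652 at 5 min in H. burtonii. The members then split into 1 higher and 1 lower at 15 min in H. pseudoburtonii, and 1 higher and 2 lower at 5 min in H. burtonii. The 15 min counts were 0 in H. pseudoburtonii without 0 min replicate 1 or 15 min replicate 1, and 2 without 0 min replicate 2, 15 min replicate 2 or either 30 min library. In H. burtonii they were 3 without 0 min replicate 1 or either 5 min library, 4 without either 30 min library and 2 without 15 min replicate 2. The 5 min count of H. burtonii was 0 without either 5 min library, 1 when 0 min replicate 1 or a 30 min library was left out, and 5 without 0 min replicate 2 or either 15 min library.

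From 5 to 15 min limma called 0 of 27 members in H. pseudoburtonii, with 3 at an unadjusted p under 0.05, where 4.78% of all genes were called (3.05% higher and 1.72% lower). Over that step 6 of 29 rose in H. burtonii, where 20.1% of all genes were called (16.1% higher and 3.95% lower). They were ATG11, ATG7, ATG26 (TBIG005488), ATG18, ATG28 and ATG13, with log2 changes between 0.75 and 1.35. With median-ratio and with quantile scaling 1 member was higher over that step, ATG11, and 2 were lower. All genes then had 274 and 336 higher and 399 and 362 lower. From 15 to 30 min 6 of 27 rose in H. pseudoburtonii, where 14.3% of all genes were called (11% higher and 3.38% lower). They were ATG1, ATG9, ATG17, ATG26, ATG15 and ATG20, with log2 changes between 1.14 and 2.45. With median-ratio scaling 4 were higher and 0 lower, and with quantile scaling 2 were higher and 1 lower. Those scalings gave 335 and 342 higher and 414 and 410 lower over all genes. In H. burtonii only ATG21 was called over that step, lower, of 29 members, against 16.2% of all genes (9.49% higher and 6.73% lower). These step counts were fragile, and whether the steps differ between the species was not tested. The 15 to 30 min count of H. pseudoburtonii was 0 without either 0 min library or either 30 min library and 2 without 15 min replicate 1. The 5 to 15 min count of H. burtonii was 0 without either 5 min library, 1 without 15 min replicate 1 and 2 without either 30 min library, and the ATG21 call was lost without either 5 min or 30 min library or 15 min replicate 2 (-1.17 to -0.66).

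**Figure D1:**
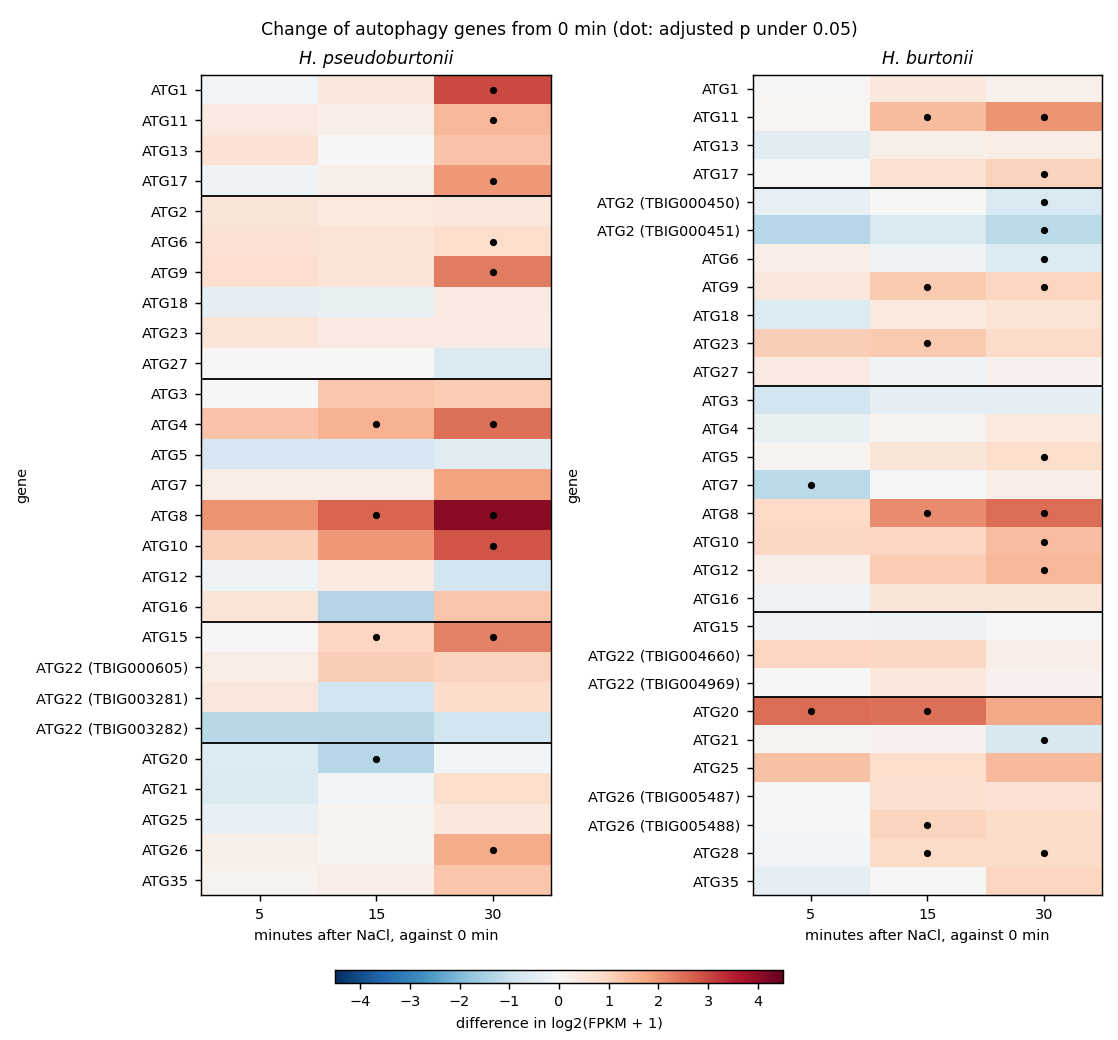
Heat map of the difference in log2(FPKM + 1) from 0 min at 5, 15 and 30 min for each autophagy gene, with H. pseudoburtonii on the left and H. burtonii on the right; dots mark adjusted p under 0.05 and black lines separate the roles used in the text. In the 30 min column 10 genes of H. pseudoburtonii carry a dot, all higher, and 12 of H. burtonii, 8 higher and 4 lower.

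The kinase complex that starts autophagy and the scaffolds were counted together (ATG1, ATG13, ATG17 and ATG11). Of these 4 genes, 3 had risen at 30 min in H. pseudoburtonii and 2 in H. burtonii, with 0 lower in either. Among all tested genes 25.8% were higher and 9.69% lower in H. pseudoburtonii, and 37% and 11.1% in H. burtonii. Nothing particular to a role is read from counts this small, here or below. The kinase gene itself, ATG1 (TBIG004050, chromosome 5, 1054761 to 1057669, plus strand), had 2.21 and 2.71 FPKM at 0 min, 1.87 and 2.45 at 5 min, 6.22 and 2.32 at 15 min and 29.0 and 22.8 at 30 min in H. pseudoburtonii. Both 30 min libraries lay far above all 6 earlier ones, at about 89.6 estimated fragments against 17 at 0 min. ATG1 rose by 2.95 (SE 0.50, adjusted p = 0.00399) or 1.52 with a pseudocount of 10. In H. burtonii ATG1 (TBIG003058) was at 26.3 and 36.7 FPKM at 0 min, 34.0 and 30.0 at 5 min, 36.6 and 51.0 at 15 min and 40.7 and 33.7 at 30 min. Its 0 and 30 min libraries overlapped, and the gene was not called in any comparison there.

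Atg17 is the scaffold that gathers the complex during starvation in Saccharomyces cerevisiae. ATG17 had 9.73 and 9.98 FPKM at 0 min, 8.18 and 8.65 at 5 min, 15.9 and 9.13 at 15 min and 45.9 and 36.0 at 30 min in H. pseudoburtonii. Both 30 min libraries were above the other 6, and the gene rose by 1.94 (SE 0.35, adjusted p = 0.00516) or 1.22 under quantile scaling. The H. burtonii gene had 35.9 and 30.1 FPKM at 0 min, 30.5 and 33.0 at 5 min, 64.1 and 44.6 at 15 min and 68.5 and 69.3 at 30 min. There too the 30 min libraries were the highest of the 8, with 1.04 (SE 0.22, adjusted p = 0.00703). That call was lost with median-ratio (0.54) and quantile (0.56) scaling.

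Atg11 is the scaffold for selective cargo. In H. pseudoburtonii ATG11 was at 12.1 and 11.0 FPKM at 0 min, 19.6 and 12.6 at 5 min, 11.8 and 17.9 at 15 min and 37.8 and 31.6 at 30 min. The 30 min libraries were the highest and the gene rose by 1.5 (SE 0.34, adjusted p = 0.013). This call was lost with quantile scaling (0.77) and without any 1 of the 0 or 30 min libraries (1.38 to 1.63). ATG11 of H. burtonii (TBIG004668, chromosome 6, 30044 to 33634, minus strand) had 9.27 and 11.9 FPKM at 0 min, 12.1 and 10.4 at 5 min, 29.2 and 31.2 at 15 min and 43.1 and 49.7 at 30 min. Its 15 min libraries were above all at 0 and 5 min and its 30 min libraries above those. It rose by 1.44 (SE 0.22, adjusted p = 0.00396) at 15 min, or 0.87 with quantile scaling, and by 2.04 (SE 0.22, adjusted p = 0.000388) at 30 min, and both calls held under all 16 alternatives run for that species.

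Atg13, the regulatory subunit that nutrient signalling through the TORC1 kinase phosphorylates, was not called against 0 min. ATG13 had 5.43 and 4.77 FPKM at 0 min, 6.34 and 11.7 at 5 min, 3.73 and 6.86 at 15 min and 16.5 and 11.5 at 30 min in H. pseudoburtonii and 35.1 and 36.8 FPKM at 0 min, 25.4 and 25.4 at 5 min, 47.4 and 39.6 at 15 min and 40.2 and 50.5 at 30 min in H. burtonii. In H. pseudoburtonii the 30 min libraries were above both at 0 min but 5 min replicate 2 lay above the lower of them. In H. burtonii the 30 min libraries were above both at 0 min, and 15 min replicate 1 lay between them.

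Of the lipid kinase, Atg9 and lipid transfer members, 2 of 6 had risen at 30 min in H. pseudoburtonii with 0 lower, and 1 of 7 had risen and 3 fallen in H. burtonii. The shares of all genes were 25.8% higher and 9.69% lower in H. pseudoburtonii, and 37% and 11.1% in H. burtonii. Of the 3 that fell, 2 are the neighbouring ATG2 models described below, which may be 1 gene. Atg9, the membrane protein whose vesicles seed the autophagosome, was called in both species. ATG9 of H. pseudoburtonii (TBIG001838, chromosome 2, 1626872 to 1629907, plus strand) was at 9.93 and 10.9 FPKM at 0 min, 18.8 and 17.4 at 5 min, 11.7 and 22.7 at 15 min and 61.0 and 52.5 at 30 min. The 30 min values lay above all others, and the gene rose by 2.34 (SE 0.35, adjusted p = 0.00238). In H. burtonii ATG9 was at 3.81 and 5.12 FPKM at 0 min, 6.03 and 7.54 at 5 min, 9.97 and 12.4 at 15 min and 9.32 and 10 at 30 min. Its 15 and 30 min libraries were above all at 0 and 5 min. It rose by 1.16 (SE 0.27, adjusted p = 0.0175) at 15 min and by 0.97 (SE 0.27, adjusted p = 0.0204) at 30 min. Both calls were lost with median-ratio (0.85 and 0.53) and quantile (0.41 and 0.26) scaling and without 0 min replicate 1 (0.99 and 0.80), the first also without 15 min replicate 2 (1.02) and the second without either 30 min library (1.02 and 0.93). With a pseudocount of 10 they were 0.55 and 0.44.

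Atg6, known as Vps30 in S. cerevisiae and Beclin in animals, is a subunit of the phosphatidylinositol kinase complex. ATG6 had 20.6 and 20.9 FPKM at 0 min, 28.6 and 38.9 at 5 min, 33.1 and 31.4 at 15 min and 37.2 and 36.1 at 30 min in H. pseudoburtonii. Both 0 min libraries were the lowest there, and at 30 min the gene was higher by 0.79 (SE 0.25, adjusted p = 0.0406). In H. burtonii ATG6 had 35.5 and 36.6 FPKM at 0 min, 41.7 and 46.7 at 5 min, 31.1 and 29.4 at 15 min and 24.3 and 21.7 at 30 min. Both 30 min libraries were the lowest of the 8, with -0.63 (SE 0.19, adjusted p = 0.0266). The H. pseudoburtonii call was lost with median-ratio (0.40) and quantile (0.14) scaling, with a replicate block (0.79) and without any 1 of the 0 or 30 min libraries (0.77 to 0.81). The H. burtonii call was lost without any 1 of the 0, 5 or 30 min libraries (-0.70 to -0.55), and was -1.12 and -1.09, and called, under the 2 scalings.

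Atg2 moves lipids into the growing membrane and Atg18 binds the lipid signal that recruits it. In H. pseudoburtonii ATG2 is a single model of 6153 bp at 14.3 and 12.9 FPKM at 0 min, 19.5 and 20.7 at 5 min, 24.0 and 14.8 at 15 min and 19.1 and 20.3 at 30 min. Its 0 and 30 min libraries did not overlap but the gene was not called. In H. burtonii the name stands on neighbouring models on the minus strand of chromosome 1, TBIG000450 (887997 to 892121) and TBIG000451 (892427 to 893890), 305 bp apart and spanning 5894 bp together. The longer had 38.0 and 37.0 FPKM at 0 min, 33.1 and 25.5 at 5 min, 38.7 and 36.2 at 15 min and 23.3 and 22.1 at 30 min, and the shorter 6.25 and 7.19 FPKM at 0 min, 2.21 and 2.18 at 5 min, 5.66 and 2.50 at 15 min and 2.999 and 1.70 at 30 min. Both were lower at 30 min than at 0 min in each library, with changes of -0.70 (SE 0.20, adjusted p = 0.0237) for the longer and -1.23 (SE 0.39, adjusted p = 0.0333) for the shorter. Both calls were lost without any 1 of the 0 or 30 min libraries (-0.74 to -0.67 and -1.51 to -0.95), the second also without either 5 min library (-1.23 each). They were -1.20 and -1.16 for the longer under the 2 scalings, and -0.44 for the shorter with a pseudocount of 10. Whether these models are 1 gene was not tested, and as such they would count once.

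ATG18 had 32.2 and 32.0 FPKM at 0 min, 26.9 and 20.9 at 5 min, 23.0 and 28.0 at 15 min and 51.6 and 35.5 at 30 min in H. pseudoburtonii and 19.6 and 26.5 FPKM at 0 min, 16.6 and 12.8 at 5 min, 29.1 and 32.9 at 15 min and 43.0 and 29.4 at 30 min in H. burtonii. It was not called against 0 min in either species, although the 30 min libraries were above both at 0 min in each. ATG23 and ATG27, whose products help Atg9 travel in S. cerevisiae, spanned 27.9 to 102 FPKM over the 8 libraries of H. pseudoburtonii, where neither was called. In H. burtonii ATG27 lay between 94.9 and 143 FPKM and was not called, while ATG23 lay between 6.56 and 26.4 FPKM and was called at 15 min alone (1.18 (SE 0.33, adjusted p = 0.0331)). That call did not hold with either scaling (0.85 and 0.55), without 0 min replicate 1 (0.90), 15 min replicate 2 (0.78) or any 1 of the 5 and 30 min libraries (1.18 each), and the value was 0.72 with a pseudocount of 10.

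Of the 8 genes of the Atg8 and Atg12 conjugation systems, 3 had risen at 30 min in H. pseudoburtonii (ATG8, ATG4 and ATG10) and 4 in H. burtonii (ATG8, ATG10, ATG12 and ATG5), with 0 lower in either. Among all genes 25.8% were higher and 9.69% lower in H. pseudoburtonii, and 37% and 11.1% in H. burtonii. Atg8 is the ubiquitin-like protein that becomes bound to membrane lipid and stays in the autophagosome. ATG8 of H. pseudoburtonii (TBIG005527, chromosome 7, 955007 to 955559, plus strand) had 3.20 and 15.3 FPKM at 0 min, 44.9 and 23.5 at 5 min, 37.6 and 65.9 at 15 min and 137 and 139.8 at 30 min. The 0 min libraries were the lowest and lay far from each other, at about 12.3 estimated fragments in all, and the 30 min libraries were the highest. It rose by 2.62 (SE 0.62, adjusted p = 0.0267) at 15 min and by 4.07 (SE 0.62, adjusted p = 0.00273) at 30 min, a 16.8-fold change on this scale. The 15 min call was lost without 0 min replicate 1 (1.64), either 15 min library (3.01 and 2.22), either 30 min library or the filter (2.62 each), and was 1.72 with a pseudocount of 10. The 30 min call held under all 16 alternatives, between 3.02 and 5.05.

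ATG8 of H. burtonii (TBIG002303, chromosome 2, 1899326 to 1899777, plus strand) had 30.1 and 50.4 FPKM at 0 min, 57.7 and 92.9 at 5 min, 112 and 267 at 15 min and 190.1 and 278 at 30 min. All libraries at 15 and 30 min were above all at 0 and 5 min, and those at 0 min were the lowest. It rose by 2.12 (SE 0.46, adjusted p = 0.0129) at 15 min, a call lost without 15 min replicate 2 (1.49), and by 2.53 (SE 0.46, adjusted p = 0.00334) at 30 min. ATG8 made up 13.6% and 15.4% of the summed FPKM of all members at 30 min and 0.7% and 3.3% at 0 min in H. pseudoburtonii, and 17.8% and 22.1% at 30 min and 4.6% and 6.7% at 0 min in H. burtonii.

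Atg4 is the protease that trims Atg8 before conjugation and frees it afterwards. ATG4 of H. pseudoburtonii was at 4.58 and 2.74 FPKM at 0 min, 10.2 and 10.2 at 5 min, 13.1 and 11.9 at 15 min and 29.1 and 20.1 at 30 min. All 6 later libraries lay above both at 0 min, and both at 30 min were the highest. The gene rose by 1.56 (SE 0.37, adjusted p = 0.0259) at 15 min and by 2.47 (SE 0.37, adjusted p = 0.0025) at 30 min, or 0.72 and 1.33 with a pseudocount of 10. The 15 min call was lost with quantile scaling (1.31) and without any 1 of the 0 or 15 min libraries (1.27 to 1.85). In H. burtonii ATG4 stayed low, at 5.21 and 6.40 FPKM at 0 min, 4.503 and 4.21 at 5 min, 6.69 and 6.32 at 15 min and 7.69 and 8.53 at 30 min, and was not called at any time.

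The other conjugation enzymes are Atg7, which activates both ubiquitin-like proteins, Atg3, which passes on Atg8, and Atg10, which passes on Atg12. ATG7 had 3.19 and 2.18 FPKM at 0 min, 2.70 and 4.64 at 5 min, 1.74 and 6.82 at 15 min and 20.5 and 6.60 at 30 min in H. pseudoburtonii. Only 30 min replicate 1 stood far above the rest, and the gene was not called. In H. burtonii it had 35.5 and 30.2 FPKM at 0 min, 13.7 and 13.7 at 5 min, 35.1 and 27.2 at 15 min and 37.0 and 44.1 at 30 min, lowest in both 5 min libraries. There it fell at 5 min, with a change of -1.20 (SE 0.22, adjusted p = 0.0113), a call lost without either 5 min library (-1.20 each).

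ATG3 was not called in any comparison. It had 17.4 and 11.7 FPKM at 0 min, 24.5 and 7.87 at 5 min, 35.1 and 34.6 at 15 min and 24.7 and 43.9 at 30 min in H. pseudoburtonii and 35.7 and 37.3 FPKM at 0 min, 18.2 and 22.2 at 5 min, 32.3 and 21.9 at 15 min and 23.6 and 29.9 at 30 min in H. burtonii. ATG10 had 3.89 and 33.6 FPKM at 0 min, 23.6 and 29.3 at 5 min, 32.1 and 74.4 at 15 min and 99.6 and 83.6 at 30 min in H. pseudoburtonii. The 0 min libraries stood far apart, and both 30 min libraries were above all others, with 2.83 (SE 0.82, adjusted p = 0.0305). Without 0 min replicate 1 the change was 1.42 and not called, and the call was also lost with either scaling (2.44 and 2.29), without the filter, the trend or either 5 min library (2.83 each) and without either 30 min library (2.70 and 2.95). In H. burtonii ATG10 was at 13.3 and 7.67 FPKM at 0 min, 21.0 and 19.2 at 5 min, 16.5 and 26.0 at 15 min and 23.0 and 35.3 at 30 min. It rose by 1.40 (SE 0.35, adjusted p = 0.0132), with both 30 min libraries above both at 0 min, or 0.93 with a pseudocount of 10. That call was lost with median-ratio (0.92) and quantile (0.79) scaling and without 30 min replicate 2 (1.11).

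Atg12 is joined to Atg5, and with Atg16 the conjugate directs Atg8 to the membrane. ATG12 had 7.27 and 8.25 FPKM at 0 min, 5.64 and 7.78 at 5 min, 10.7 and 10.8 at 15 min and 5.16 and 2.68 at 30 min in H. pseudoburtonii. The 30 min libraries were the lowest of the 8 but rested on about 3.06 estimated fragments, against 12.1 at 0 min, and the gene was not called. In H. burtonii ATG12 was at 20.1 and 46.7 FPKM at 0 min, 40 and 35.9 at 5 min, 77.4 and 60.9 at 15 min and 70.4 and 111 at 30 min. Both 30 min libraries were above both at 0 min, which lay far from each other, with 1.49 (SE 0.39, adjusted p = 0.016). The call was lost with either scaling (0.99 and 0.95) and without 30 min replicate 2 (1.17), and the value was 0.91 without 0 min replicate 1.

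ATG5 had 90.6 and 97.1 FPKM at 0 min, 66.9 and 45.7 at 5 min, 68.6 and 44.8 at 15 min and 54.4 and 74.6 at 30 min in H. pseudoburtonii. The 0 min libraries were the highest of the 8 there and the gene was not called. In H. burtonii it had 47.9 and 48.1 FPKM at 0 min, 55.9 and 49.8 at 5 min, 63.4 and 78.0 at 15 min and 94.2 and 73.0 at 30 min. The 0 min libraries were the lowest of the 8, with 0.78 (SE 0.20, adjusted p = 0.0162) at 30 min, a call lost with either scaling (0.27 and 0.31) and without 30 min replicate 1 (0.60). ATG5 lies 99 bp from ABP140 on the opposite strand in H. pseudoburtonii and 10 bp in H. burtonii, and whether reads were assigned by strand is not stated. ABP140 was at 39.4 and 27.4 FPKM at 30 min and 48.5 and 51.3 FPKM at 0 min in H. pseudoburtonii, and at 22.8 and 19.5 FPKM at 30 min and 10.6 and 12.4 FPKM at 0 min in H. burtonii. It thus lay on the same side of 0 min as ATG5 in each species, and its part in the ATG5 values was not tested. Of the other members of H. burtonii called at 30 min, 3 lie at most 100 bp from a gene on the opposite strand, whose part in their values was not tested either. Beside ATG10, at 88 bp, TBIG004022 was at 1229 and 1423 FPKM at 30 min and 948 and 749 FPKM at 0 min, on the same side of 0 min as ATG10. In H. pseudoburtonii the like-named neighbour of ATG10, at 234 bp, was at 325 and 324 FPKM at 30 min and 568 and 553 FPKM at 0 min, on the other side. Beside ATG8 of H. burtonii, at 100 bp, AAH1 was at 37.8 and 33.6 FPKM at 30 min and 12.2 and 19.3 FPKM at 0 min. Beside ATG11, at 38 bp, PRS4 was at 49.3 and 58.0 FPKM at 30 min and 47.6 and 46.2 FPKM at 0 min. Both lay on the same side of 0 min as their member. In H. pseudoburtonii AAH1, at 509 bp, was at 162 and 128 FPKM at 30 min and 254 and 275 FPKM at 0 min. PRS4 there, at 159 bp, was at 35.2 and 23.1 FPKM at 30 min and 50.5 and 65.1 FPKM at 0 min. Those lay on the other side. ATG16 lay between 0 and 24.5 FPKM in H. pseudoburtonii and between 5.65 and 17.2 FPKM in H. burtonii and was not called.

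**Figure D2:**
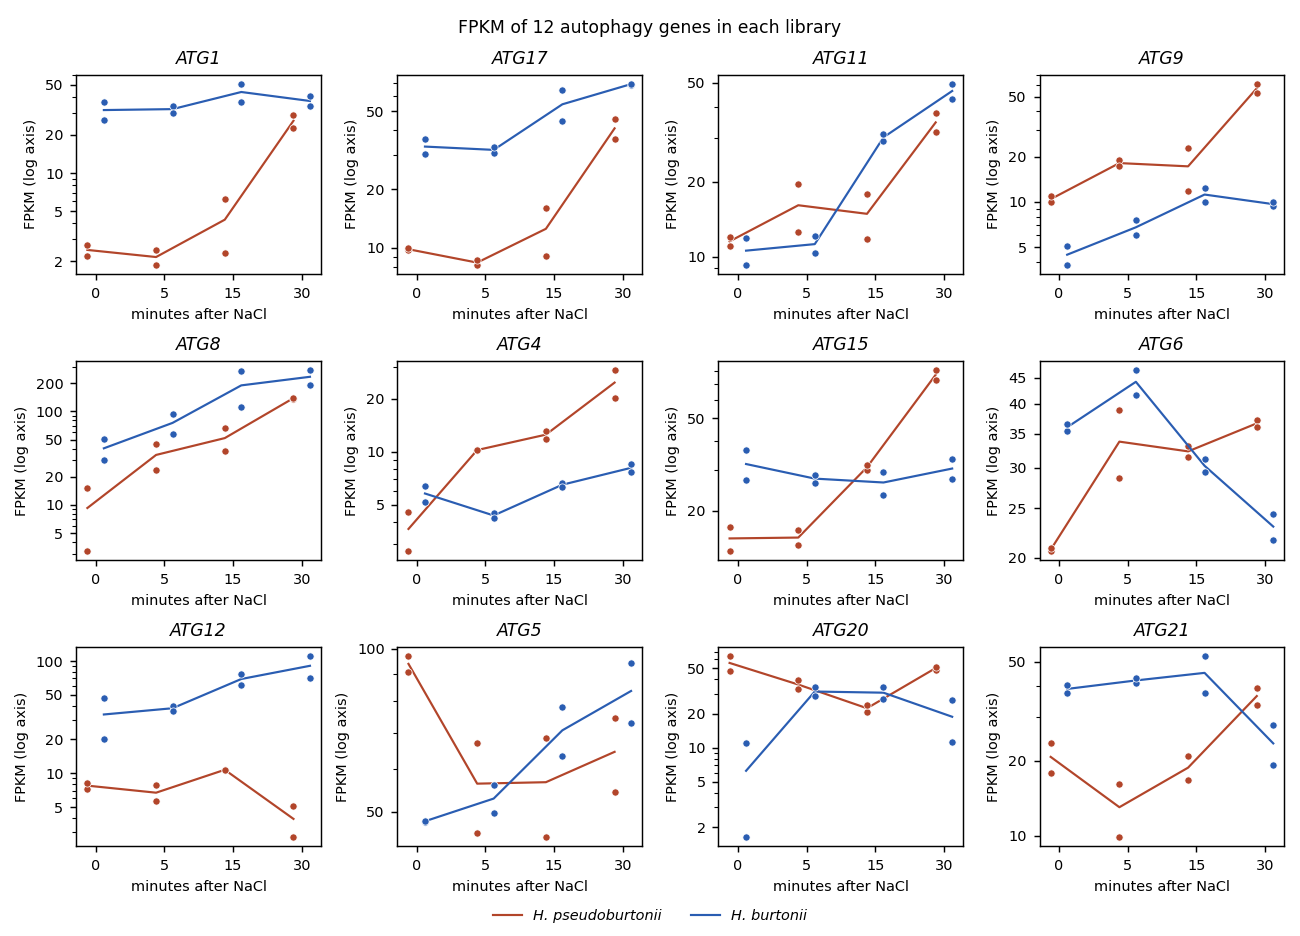
FPKM of 12 autophagy genes on log axes against minutes after NaCl; points are single libraries and lines join the means of 2 libraries, in red for H. pseudoburtonii and in blue for H. burtonii. ATG1 and ATG15 climb to 30 min in H. pseudoburtonii with overlapping 0 and 30 min points in H. burtonii, ATG8 and ATG11 climb in both, and ATG12 climbs in H. burtonii and is lowest at 30 min in H. pseudoburtonii.

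Among the vacuolar members, the lipase gene ATG15, whose product opens the membrane of bodies delivered to the vacuole, rose in H. pseudoburtonii. It had 17.0 and 13.4 FPKM at 0 min, 16.4 and 14.2 at 5 min, 30.0 and 31.5 at 15 min and 80.8 and 73.0 at 30 min there. The 15 min libraries were above all at 0 and 5 min and the 30 min libraries above those. ATG15 (TBIG002011, chromosome 2, 2081086 to 2082939, minus strand) rose by 0.98 (SE 0.25, adjusted p = 0.0347) at 15 min and by 2.27 (SE 0.25, adjusted p = 0.000732) at 30 min. The 15 min call was lost with quantile scaling (0.74), with a replicate block (0.98) and without any 1 of the 0, 15 or 30 min libraries (0.82 to 1.14), while the 30 min call held under all 16 alternatives, between 1.71 and 2.44. In H. burtonii ATG15 had 36.4 and 27.1 FPKM at 0 min, 28.6 and 26.3 at 5 min, 29.5 and 23.4 at 15 min and 27.4 and 33.3 at 30 min, with its 0 and 30 min libraries overlapping, and was not called.

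ATG22 names transporters thought to release amino acids from the vacuole. Its 3 models in H. pseudoburtonii, of which TBIG003281 and TBIG003282 lie 20 bp apart, were between 0 and 8.52 FPKM, and its 2 models in H. burtonii between 1.41 and 17.0 FPKM. No ATG22 model was called in any comparison.

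The remaining members act in selective routes. At 30 min 1 of 5 had risen in H. pseudoburtonii, with 0 lower, and 1 of 7 had risen and 1 fallen in H. burtonii. The shares of all genes were 25.8% higher and 9.69% lower in H. pseudoburtonii, and 37% and 11.1% in H. burtonii. Atg20 is a sorting nexin of the Cvt pathway that also works in recycling from endosomes. ATG20 of H. pseudoburtonii was at 64.2 and 47.3 FPKM at 0 min, 32.8 and 39.1 at 5 min, 20.8 and 23.8 at 15 min and 48.7 and 51.8 at 30 min. The 15 min libraries were the lowest of the 8, at -1.27 (SE 0.25, adjusted p = 0.0135), a call lost without either 0 min library (-1.06 and -1.49) or 15 min replicate 1 (-1.18), and the 30 min libraries were among those of 0 min. In H. burtonii ATG20 had 1.63 and 10.9 FPKM at 0 min, 28.3 and 34.2 at 5 min, 26.9 and 34.1 at 15 min and 11.1 and 26.3 at 30 min. All 4 libraries at 5 and 15 min were above both at 0 min, which stood far apart. It rose by 2.52 (SE 0.67, adjusted p = 0.0338) at 5 min and by 2.48 (SE 0.67, adjusted p = 0.0285) at 15 min. Without 0 min replicate 1 these were 1.43 and 1.39, and neither was called. With a pseudocount of 10 they were 1.40 and 1.37. Either library of the time compared (2.65 and 2.39, then 2.65 and 2.32) was also needed, as were both 30 min libraries and the filter for the first (2.52 each) and both 5 min libraries for the second (2.48 each), which was 1.86 and lost with quantile scaling.

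Atg21 binds the same lipid signal as Atg18 and helps place Atg8 conjugation in the Cvt pathway of S. cerevisiae. ATG21 had 17.9 and 23.6 FPKM at 0 min, 16.2 and 9.84 at 5 min, 16.7 and 20.8 at 15 min and 33.6 and 39.1 at 30 min in H. pseudoburtonii. The 30 min libraries were the highest but the gene was not called. In H. burtonii it had 37.3 and 40.3 FPKM at 0 min, 41.1 and 42.8 at 5 min, 37.4 and 52.6 at 15 min and 19.2 and 27.8 at 30 min. There the 30 min libraries were the lowest, with -0.72 (SE 0.25, adjusted p = 0.0456). The call was lost with a pseudocount of 10 (-0.56), without the filter or the trend (-0.72 each), without any 1 of the 0 or 5 min libraries (-0.78 to -0.67) and without 30 min replicate 1 (-0.47), and the value was -1.22 and -1.19, and called, under the 2 scalings.

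Atg26, Atg28, Atg25 and Atg35 are known from the breakdown of peroxisomes in methylotrophic yeasts, where Atg26 is a sterol glucosyltransferase. The genes named ATG35 are described as autophagy-related protein 36 in both species, and which is right was not tested. ATG26 had 4.15 and 4.31 FPKM at 0 min, 5.84 and 4.64 at 5 min, 5.89 and 3.60 at 15 min and 16.9 and 14.9 at 30 min in H. pseudoburtonii, highest in both 30 min libraries. It rose by 1.69 (SE 0.40, adjusted p = 0.015), lost with quantile scaling (0.76) and without any 1 of the 0 or 30 min libraries (1.60 to 1.77), and was 0.86 with a pseudocount of 10. In H. burtonii the name is on neighbouring models, TBIG005487 and TBIG005488, 95 bp apart, which spanned 17.8 to 45.9 and 3.25 to 9.31 FPKM. The second was called at 15 min (1.00 (SE 0.31, adjusted p = 0.045)), a call lost under 11 of 15 alternatives with values between 0.24 and 1.23.

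ATG28, named in H. burtonii alone, was at 12.1 and 18.2 FPKM at 0 min, 13.3 and 14.1 at 5 min, 24.3 and 31.9 at 15 min and 28.6 and 25.9 at 30 min. All 4 libraries at 15 and 30 min were above both at 0 min. It rose by 0.86 (SE 0.26, adjusted p = 0.042) at 15 min and by 0.83 (SE 0.26, adjusted p = 0.0321) at 30 min. The calls were lost with median-ratio (0.52 and 0.34) and quantile (0.34 and 0.25) scaling, without 0 min replicate 1 (0.58 and 0.55) or either 5 min library (0.86 and 0.83 each), the first also without 15 min replicate 2 (0.67) or either 30 min library (0.86 each) and the second without either 30 min library (0.76 and 0.90). ATG25 lay between 7.73 and 25.2 FPKM in H. pseudoburtonii and between 1.94 and 18.5 FPKM in H. burtonii, and ATG35 between 0.803 and 5.36 FPKM in H. pseudoburtonii and between 8.97 and 38.9 FPKM in H. burtonii. Neither was called.

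At 0 min the members held lower ranks in H. pseudoburtonii. The median member mean at 0, 5, 15 and 30 min was 10.9, 15.3, 17.2 and 34.3 FPKM in H. pseudoburtonii and 22.3, 20.1, 30.2 and 27.2 FPKM in H. burtonii. At 0 min the median member stood at percentile 19.7 of all genes of H. pseudoburtonii, with 24 of 27 under percentile 50, and at percentile 44.7 of H. burtonii, with 16 of 29 there. At 30 min these medians were 33.6 in H. pseudoburtonii and 40.3 in H. burtonii. Member FPKM summed to 1006 and 908 at 30 min and 476 and 470.1 at 0 min in H. pseudoburtonii, and to 1066 and 1257 at 30 min and 658 and 751 at 0 min in H. burtonii. The species had separate tables, so these levels are set side by side without a test.

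To compare the species, genes were paired by Swiss-Prot accession or name, and the 2 changes were subtracted, H. burtonii from H. pseudoburtonii, and tested over 3415 pairs, 23 of them members. Such pairs may join paralogs, and ATG2, ATG22 and ATG28 had no pair. At 30 min 8 of 23 differed, 6 higher and 2 lower in H. pseudoburtonii (34.8%), where 36.1% of all pairs were called (12.9% higher and 23.2% lower). Their median difference was 0.89, and that of all pairs was -0.28. The called share was thus near that of all pairs. At 15 min 5 of 23 differed, 3 higher and 2 lower (21.7%), where 20.8% of all pairs were called (5.92% higher and 14.9% lower). With either other scaling 4 were higher and 1 lower at 15 min. At 5 min 2 of 23 differed, 1 each way (8.7%), where 15.5% of all pairs were called (7.88% higher and 7.64% lower). Without 1 library the 30 min count was lowest at 5 (H. burtonii 30 min replicate 1). The 15 min count was 1 without H. burtonii 15 min replicate 2, 2 without H. burtonii 0 min replicate 1 or H. pseudoburtonii 0 min replicate 2 and 3 without H. burtonii 0 min replicate 2, H. pseudoburtonii 0 min replicate 1 or H. pseudoburtonii 15 min replicate 1. The 5 min count was 0 without H. burtonii 5 min replicate 2 and 1 without H. burtonii 5 min replicate 1 or either H. pseudoburtonii 0 min library.

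The 3 pairs whose 30 min change in H. pseudoburtonii most exceeded that in H. burtonii were ATG1, ATG15 and ATG4. The kinase gene ATG1 differed by 2.71 (SE 0.50, adjusted p = 0.00133), and the lipase gene ATG15 by 2.33 (SE 0.32, adjusted p = 2e-04). The protease gene ATG4 differed by 2.04 (SE 0.41, adjusted p = 0.00236), and earlier by 1.64 (SE 0.41, adjusted p = 0.0192) at 5 min and 1.41 (SE 0.41, adjusted p = 0.0289) at 15 min. All 3 30 min calls held under the 24 alternatives, although a pseudocount of 10 brought ATG1 to 1.33 and ATG4 to 1.14 (0.71 and 0.66 at the earlier times). The earlier ATG4 calls were lost without H. pseudoburtonii 0 min replicate 2 (1.35 and 1.13), the first also without either H. burtonii 5 min library (1.68 and 1.60) and the second without either H. burtonii 15 min library (1.45 and 1.38), H. burtonii 0 min replicate 2 (1.29) or H. pseudoburtonii 15 min replicate 1 (1.35). ATG15 also differed at 15 min by 1.23 (SE 0.32, adjusted p = 0.0184), lost without H. burtonii 0 min replicate 1 (1.02), H. burtonii 15 min replicate 2 (1.07) or H. pseudoburtonii 0 min replicate 2 (1.07).

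In the membrane supply group ATG6 differed at 30 min by 1.42 (SE 0.28, adjusted p = 0.00208), with the gene on opposite sides of 0 min in the 2 species, and this held under all 24 alternatives. At 15 min it differed by 0.86 (SE 0.28, adjusted p = 0.0469), a call lost with a replicate block (0.86) and without any 1 library other than the H. pseudoburtonii 5 min ones (0.82 to 0.90). ATG9 differed at 30 min by 1.36 (SE 0.43, adjusted p = 0.026), lost without any 1 of the 0 or 30 min libraries (1.19 to 1.42) other than H. burtonii 0 min replicate 1 and H. pseudoburtonii 30 min replicate 2. ATG21, placed above with the selective routes, differed at 30 min by 1.51 (SE 0.40, adjusted p = 0.0115). That call was lost without H. burtonii 30 min replicate 1 (1.26) or H. pseudoburtonii 0 min replicate 1 (1.32).

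Both members of the Atg12-Atg5 conjugate went the other way. ATG12 differed at 30 min by -2.37 (SE 0.54, adjusted p = 0.00483), a call that held under all 24 alternatives. In H. pseudoburtonii ATG12 rested on about 3.06 estimated fragments at 30 min and 12.1 at 0 min and was not called. The part of so few fragments in the difference was not tested. ATG5 differed by -1.29 (SE 0.37, adjusted p = 0.0282) at 15 min and by -1.33 (SE 0.37, adjusted p = 0.015) at 30 min. The 15 min call of ATG5 was lost with either scaling (-1.04 and -1.01) and without any 1 of 5 libraries (-1.34 to -0.99), namely both H. pseudoburtonii 0 min libraries, H. pseudoburtonii 15 min replicate 2, H. burtonii 0 min replicate 1 and H. burtonii 15 min replicate 2. Its 30 min call was lost without H. burtonii 30 min replicate 1 (-1.15), H. pseudoburtonii 0 min replicate 2 (-1.28) or H. pseudoburtonii 30 min replicate 1 (-1.10). The sorting nexin gene ATG20 differed by -3.13 (SE 0.78, adjusted p = 0.0186) at 5 min and by -3.76 (SE 0.78, adjusted p = 0.00602) at 15 min. With a pseudocount of 10 these were -1.91 and -2.39. The first was lost without H. burtonii 5 min replicate 2 (-3.00) or H. pseudoburtonii 0 min replicate 1 (-2.91) and was -2.04 without H. burtonii 0 min replicate 1. Of the paired members called higher at 30 min, 10 in H. pseudoburtonii and 7 in H. burtonii, 5 were common to both, or 50% and 71.4% of those lists. Over all 3415 pairs 791 were called higher in H. pseudoburtonii and 1341 in H. burtonii, and the 320 common to both made up 40.5% and 23.9% of those lists. Nothing particular to the members is read from these shares. The 5 members common to both were ATG8, ATG9, ATG10, ATG11 and ATG17.

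**Figure D3:**
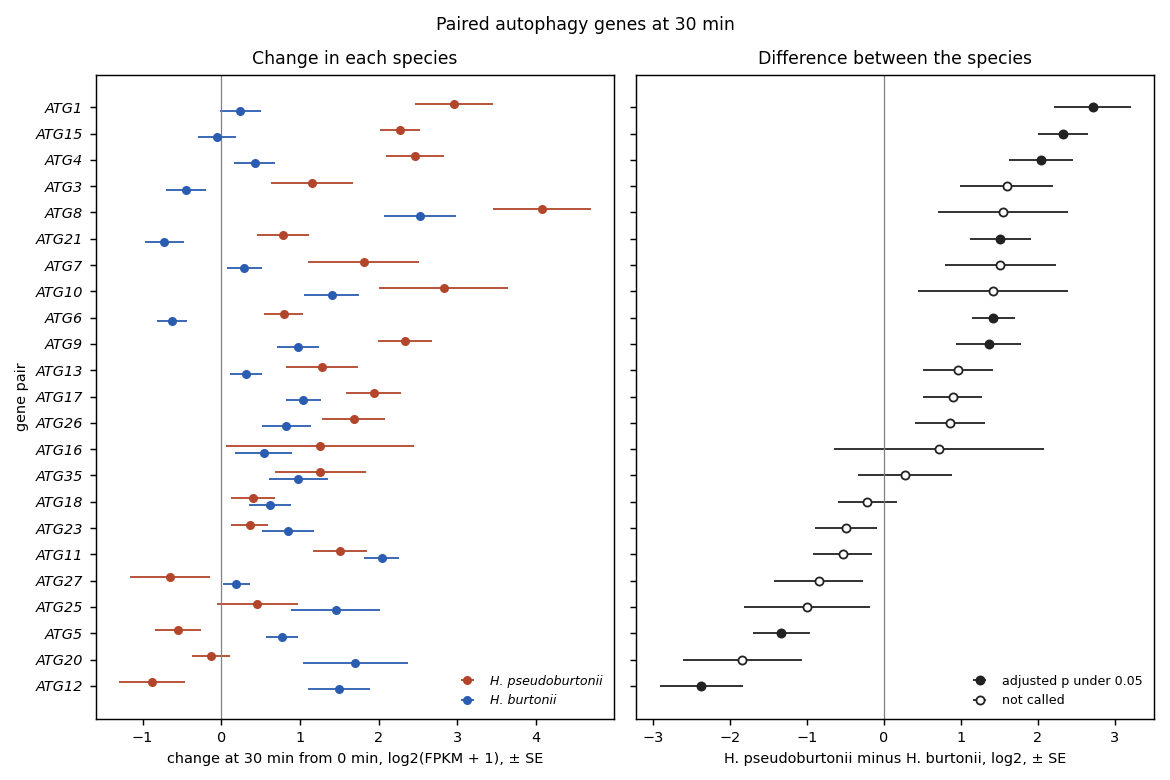
Change at 30 min from 0 min of 23 paired autophagy genes in each species (left, red for H. pseudoburtonii and blue for H. burtonii) and the difference between the species (right, filled where adjusted p was under 0.05), in log2(FPKM + 1) with bars of 1 SE. ATG1 heads the differences at 2.71 and ATG12 ends them at -2.37.

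Genes that act around the core machinery were counted from 6 lists. At 30 min, in H. pseudoburtonii, 8 of 12 genes of PKA, Snf1 and other upstream kinases and their regulators had risen with 0 lower. There 7 of 18 genes of TORC1 and its regulators had risen and 1 fallen, and 4 of 11 transcription regulators of autophagy had risen and 1 fallen. Of vacuolar hydrolases and Cvt cargo 6 of 15 had risen and 1 fallen. Of the vacuole fusion machinery 5 of 10 had risen, and of the PI3-kinase and phosphoinositide list 1 of 6, with 0 lower in these last 2. In H. burtonii 4 of 14 genes of the upstream kinase list had risen and 2 fallen. Of TORC1 genes 3 of 19 had risen and 2 fallen, and of transcription regulators 5 of 11 had risen and 2 fallen. There 10 of 20 hydrolases had risen with 0 lower, 3 of 11 fusion genes had risen and 2 fallen, and 2 of 7 of the phosphoinositide list had risen. Over all genes 25.8% were higher and 9.69% lower in H. pseudoburtonii, and 37% and 11.1% in H. burtonii. In either direction 35.4% of all genes were called in H. pseudoburtonii and 48.1% in H. burtonii. The 6 lists together had 34 called genes in H. pseudoburtonii and 35 in H. burtonii. The first count was 22 with median-ratio and 20 with quantile scaling and 14 without either 0 min library or 30 min replicate 2, and the second was 23 without 30 min replicate 1.

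The 3 list genes of smallest adjusted p in H. pseudoburtonii encode vacuolar proteases. PRB1 (TBIG002692), for the subtilisin-like protease cerevisin, had 48.9 and 61.8 FPKM at 0 min, 54.9 and 62.9 at 5 min, 208 and 178 at 15 min and 454 and 426 at 30 min. Its copy TBIG000318 had 12.8 and 6.42 FPKM at 0 min, 29.5 and 20.3 at 5 min, 70.4 and 53.9 at 15 min and 187 and 171 at 30 min. APR1, for the vacuolar aspartic protease, had 190.5 and 158 FPKM at 0 min, 185 and 208 at 5 min, 371 and 414 at 15 min and 729 and 570.0 at 30 min. In each of the 3 the 15 min libraries were above all at 0 and 5 min and the 30 min libraries above those, with changes at 30 min of 2.98 (SE 0.19, adjusted p = 7.4e-05), 4.15 (SE 0.35, adjusted p = 0.00024) and 1.89 (SE 0.18, adjusted p = 0.000434).

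In H. burtonii the smallest adjusted p values belonged to a kinase gene and 2 genes of vacuolar hydrolases. TPK2, a catalytic subunit of protein kinase A, had 41.1 and 54.3 FPKM at 0 min, 165 and 165 at 5 min, 132 and 157 at 15 min and 159 and 191 at 30 min, with all 6 later libraries above both at 0 min. CPY1, for carboxypeptidase Y, had 60.1 and 66.8 FPKM at 0 min, 89.3 and 95.7 at 5 min, 194 and 151 at 15 min and 207 and 194 at 30 min. The alpha-mannosidase gene ams1, whose product travels by the Cvt pathway in S. cerevisiae, had 6.26 and 6.80 FPKM at 0 min, 9.01 and 8.0 at 5 min, 23.6 and 21.2 at 15 min and 36.2 and 26.5 at 30 min. Both hydrolase genes were higher in all 4 libraries at 15 and 30 min than in any at 0 or 5 min. The 30 min changes were 1.86 (SE 0.20, adjusted p = 0.000358) for TPK2, 1.65 (SE 0.18, adjusted p = 0.000405) for CPY1 and 2.09 (SE 0.24, adjusted p = 0.000496) for ams1, which was 1.31 with a pseudocount of 10. These 3 calls and the 3 in H. pseudoburtonii held under all 16 alternatives.

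**Figure D4:**
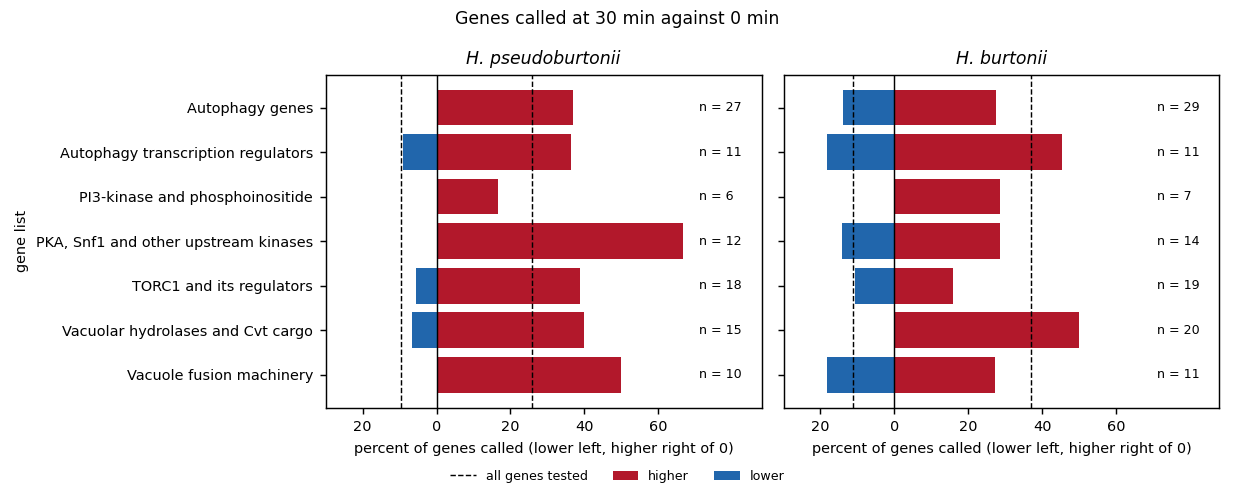
Percent of each gene list called higher (red, right of 0) and lower (blue, left of 0) at 30 min against 0 min, with H. pseudoburtonii on the left, H. burtonii on the right, the number of genes tested in each list and dashed lines for all genes tested. Among the lists of H. pseudoburtonii the upstream kinase list reaches furthest, with 8 of 12 higher, and in H. burtonii the vacuolar hydrolases and Cvt cargo, with 10 of 20.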

How the data were processed

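RNA-seq libraries of H. pseudoburtonii and H. burtonii were measured at 4 times with 2 libraries each. For each species the authors deposited FPKM without counts. Per the submitters' processing notes, Cufflinks 2.2.1, TopHat2 2.1.1, CASAVA 1.8.2 and FastQC 0.11.8 were used. Build, annotation, order of steps and strand setting were not stated there or in the labels.

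All values were taken as log2(FPKM + 1). A gene was kept in a species where 2 or more of its 8 libraries reached 1 FPKM, and all members were kept. Each species had its own limma 3.58.1 fit in R 4.3.3 (data.table, version 1.17.8), with the 4 times as groups and a prior variance that follows the mean. P-values were adjusted by the Benjamini-Hochberg method over the 5798 genes of H. pseudoburtonii or 6047 of H. burtonii, called under 0.05. Species differences came from a limma fit over all 16 libraries and 3415 gene pairs, 3235 by Swiss-Prot accession and 180 by name. That fit took a common spread for both species in each pair, and whether their spreads were equal was not tested. Fragments were roughly estimated by taking the median of the 20 lowest nonzero products of FPKM and span, among genes of 800 to 2500 bp, as worth 1 fragment. Figures were made with matplotlib 3.10.9, numpy 2.4.6 and pandas 2.3.3 under Python 3.11.15. The fits were tested on simulated data.

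Values in every library are given for the core genes, for the members called against 0 min whose higher group averaged 10 FPKM or more (at most 12 per species) and for called pairs, at most 8. Of the lists, 3 genes per species are named. MSN4, neighbouring genes such as ADH1 and ABP140, and members named for a lower or lost call, were chosen after their values were seen. Members and lists were chosen with earlier results of these data known. As alternatives, a replicate block, a fit without the trend, 2 other scalings (quantile, median-ratio), 2 other pseudocounts (0.1, 10), a filter at 10 FPKM or none, and leaving out each library were tried. Alternatives for the lists and their genes were chosen after seeing the data.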

Additional observations from a re-analysis of the deposited data

Results flagged for a closer look

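For 15 differences between the species, in 9 of the 23 paired autophagy genes, the species difference in change since 0 min passed its own test, positive where H. pseudoburtonii changed more upward. At 5 min these were ATG4 (1.64) and ATG20 (-3.13). At 15 min they were ATG4 (1.41), ATG15 (1.23), ATG6 (0.86), ATG5 (-1.29) and ATG20 (-3.76). At 30 min they were ATG1 (2.71), ATG15 (2.33), ATG4 (2.04), ATG21 (1.51), ATG6 (1.42), ATG9 (1.36), ATG5 (-1.33) and ATG12 (-2.37). The called shares of member pairs were 8.7% at 5 min, 21.7% at 15 min and 34.8% at 30 min. Those of all pairs were 15.5%, 20.8% and 36.1%, so the member shares were near them or below. The 3 times share the 0 min libraries of both species, so a gene that recurs is not independent support. With 2 libraries per group, no single library could be tested for standing apart from its group.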

How the results depend on the processing

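The alternatives changed 0 of the 63 called changes of single members in direction. Calls held for 43 of 63 with median-ratio scaling, 36 with quantile scaling, 60 with a pseudocount of 0.1, 62 with a pseudocount of 10, 58 without the filter, 59 of 60 with a filter at 10 FPKM, 60 without the trend and 57 with a replicate block, and for 416 of 624 when each library was left out. Estimated depth was lower in H. pseudoburtonii, where low genes rested on few fragments. The cause of each shift below was not tested.

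With median-ratio and quantile scaling the called members of H. burtonii were 3 and 2 at 15 min, 7 and 7 at 30 min, 3 and 3 from 5 to 15 min (1 higher and 2 lower each, against 6 higher) and 2 and 2 from 15 to 30 min (both lower). The last count was 0 without the filter or the trend and 2 with the filter at 10 FPKM. Over all genes of that species the 2 scalings gave 704 and 555 higher and 743 and 624 lower at 15 min. From 15 to 30 min they gave 284 and 368 higher and 483 and 493 lower. At 5 min H. burtonii had 4 called members with median-ratio scaling, 2 higher and 2 lower, where all genes had 703 higher and 674 lower. It had 4 with the filter at 10 FPKM and 6 with a replicate block. All-gene counts for the filter, trend, pseudocount and block settings are not given here. Nothing particular to the members or lists is read from the counts under those settings. In H. pseudoburtonii quantile scaling gave 2 at 15 min (1 each way) and 3 from 15 to 30 min (2 higher and 1 lower), and the fit without trend gave 1 at 5 min. At 30 min in H. pseudoburtonii all genes had 883 and 833 calls higher and 989 and 868 lower under the 2 scalings. The 6 lists had 22 and 20 calls there. At 5 min in that species they had 1, against 2, with either other pseudocount, without the filter and without the trend.

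When 1 library was left out, called members ranged in H. pseudoburtonii from 0 to 1 at 5 min, 0 to 4 at 15 min, 6 to 12 at 30 min, 0 to 1 from 5 to 15 min and 0 to 7 from 15 to 30 min. In H. burtonii they ranged from 0 to 5, 2 to 10, 5 to 14, 0 to 8 and 0 to 1 over the same comparisons. Pairs ranged from 0 to 3 at 5 min, 1 to 7 at 15 min and 5 to 9 at 30 min. List genes ranged from 0 to 2, 2 to 18 and 14 to 39 at the 3 times in H. pseudoburtonii and from 2 to 19, 9 to 28 and 23 to 40 in H. burtonii. Shares over all genes or pairs with the same library left out are not given, here or above. These ranges thus show only how far the counts depended on single libraries.

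The labels number the 2 libraries of each time but do not say that a number marks a shared culture. Deviations of same-numbered libraries correlated between -0.09 and 0.04 in H. pseudoburtonii and between -0.16 and 0.46 in H. burtonii over 6 pairs of times. With the replicate block the called members were 9 in H. pseudoburtonii and 15 in H. burtonii at 30 min, and 9 pairs differed. The shares over all genes and pairs with that block are not given here. Nothing particular to the members is read from these counts.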

Other observations

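MSN4, whose product activates general stress genes in S. cerevisiae and which stood in the list of autophagy transcription regulators, went opposite ways in the 2 species. It had 2.73 and 2.88 FPKM at 0 min, 4.72 and 8.002 at 5 min, 8.52 and 8.77 at 15 min and 19.8 and 19.97 at 30 min in H. pseudoburtonii. The 30 min libraries were the highest there, with 2.46 (SE 0.38, adjusted p = 0.00294), or 1.62 with quantile scaling and 1.22 with a pseudocount of 10. In H. burtonii it had 33.6 and 45.6 FPKM at 0 min, 36.6 and 37.6 at 5 min, 19.0 and 24.9 at 15 min and 6.58 and 9.498 at 30 min. The 30 min libraries were the lowest there, with -2.17 (SE 0.27, adjusted p = 0.000624). The 2 changes differed by 4.63 (SE 0.41, adjusted p = 1.03e-05), or 2.68 with a pseudocount of 10, and the call held under all 24 alternatives.

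Within H. burtonii the gap between ATG16 and the alcohol dehydrogenase gene ADH1 on the opposite strand is 94 bp. ADH1 was at 531 and 559 FPKM at 30 min and 21930 and 17557 FPKM at 0 min, while ATG16 was at 15.7 and 11.3 FPKM at 30 min and 10.1 and 7.74 FPKM at 0 min.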
